A study of Mus musculus with 2 samples.

Results

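The genes described here are Myocd, Srf, Mef2a, Mef2b, Mef2c and Mef2d, which encode myocardin, serum response factor and the myocyte enhancer factor 2 proteins. They were taken as a fixed list from the GENCODE M21 annotation of the mm10 build, 6 of its 21938 protein-coding genes on the autosomes, X and Y, and the rule uses no measured value. All 6 were found, and each locus is the gene body plus 10 kb beyond both ends. DNase-seq, in which DNase I cuts DNA not covered by nucleosomes, was used to map accessible chromatin in urinary bladder tissue of aged female mice. The animals were adults of the cross B6CASTF1/J, between C57BL/6 and CAST mice, aged 18 to 20 months, and the labels record no treatment and no engineered allele. There were 2 libraries of this 1 group, given as biological replicates 1 and 2 under 1 strain donor record. The labels do not say whether they came from separate animals, so the spread between them may be technical, and with no second group there was no test of a condition.

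SRF is a transcription factor that binds CArG boxes, a core of CC, then 6 letters that are each A or T, then GG. Myocardin is a coactivator found in smooth muscle and heart that cannot bind these sites itself and acts through SRF to drive contractile genes. MEF2 proteins bind their own AT-rich element, act in muscle, neurons and lymphocytes, and are held in check by class IIa histone deacetylases. The bladder wall is a urothelium on connective tissue and a thick smooth muscle layer, the detrusor, in which SRF and myocardin are known to maintain the contractile state. In whole tissue, fewer cells of a type and weaker accessibility per cell cannot be told apart.

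The peak lists used had 84591 entries for replicate 1 and 112174 for replicate 2. The signal of a peak is the authors' own value. It came in even steps and was treated as a count scaled by 1 factor per library. Among cell type markers, all 7 urothelial and all 6 smooth muscle genes showed an accessible promoter in replicate 1. In replicate 2, 6 and 5 of them did. Of 4 heart muscle markers, 1 had one in each library. The counts were 3 and 3 of 3 fibroblast, 3 and 3 of 4 endothelial, 1 and 2 of 4 skeletal muscle, 1 and 1 of 3 B cell and 1 and 1 of 3 hepatocyte markers. All 3 neuronal markers also had one in both libraries, so a promoter peak by itself does not tell these cell types apart. Of all protein-coding genes, 65.2% had one in replicate 1 and 67.6% in replicate 2.

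The sequences on which the motif results turn are shown first, on the strand of the gene, from GRCm38.p6, the assembly of mm10. They are reference sequence, and the CAST allele of these mice can differ from it. The 300 bases upstream of the Srf start site and the SRF-type match of its intron are shown because both carry the factor's own binding consensus. Capitals mark exact CArG box matches in these and in the Mef2d flank region.

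Srf chr17:46556176-46556475, minus strand: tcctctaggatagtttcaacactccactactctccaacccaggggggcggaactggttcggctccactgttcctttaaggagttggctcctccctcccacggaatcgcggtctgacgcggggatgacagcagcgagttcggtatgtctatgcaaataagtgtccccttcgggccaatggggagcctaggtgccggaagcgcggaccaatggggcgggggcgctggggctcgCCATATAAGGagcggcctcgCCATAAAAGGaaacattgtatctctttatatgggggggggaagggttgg

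Srf chr17:46553141-46553380, minus strand: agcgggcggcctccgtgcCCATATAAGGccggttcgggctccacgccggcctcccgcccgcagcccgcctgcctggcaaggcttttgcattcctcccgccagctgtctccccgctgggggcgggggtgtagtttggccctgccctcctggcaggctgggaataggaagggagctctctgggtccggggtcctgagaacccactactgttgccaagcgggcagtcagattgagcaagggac

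Mef2d chr3:88177601-88177880, plus strand: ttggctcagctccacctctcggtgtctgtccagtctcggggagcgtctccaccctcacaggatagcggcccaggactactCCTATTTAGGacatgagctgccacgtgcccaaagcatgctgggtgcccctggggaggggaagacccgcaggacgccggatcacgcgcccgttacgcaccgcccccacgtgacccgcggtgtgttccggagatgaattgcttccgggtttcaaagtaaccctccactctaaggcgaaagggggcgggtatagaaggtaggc

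The next regions, at Mef2a, Mef2c and Mef2d, hold exact matches to the MEF2 element, marked by capitals. The element searched was C or T, then TA, 4 letters that are each A or T, TA, and A or G. At Mef2a only the 30 bases around the match are printed.

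Mef2a chr7:67372841-67372870, minus strand: ggcctgactcCTAAAAATAGccccggtgtg

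Mef2c chr13:83603916-83604140, plus strand: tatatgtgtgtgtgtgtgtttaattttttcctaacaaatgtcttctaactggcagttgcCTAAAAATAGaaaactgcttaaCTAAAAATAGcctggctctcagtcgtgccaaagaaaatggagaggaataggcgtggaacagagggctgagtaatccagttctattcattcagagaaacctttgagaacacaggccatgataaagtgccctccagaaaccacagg

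Mef2d chr3:88140698-88140897, plus strand: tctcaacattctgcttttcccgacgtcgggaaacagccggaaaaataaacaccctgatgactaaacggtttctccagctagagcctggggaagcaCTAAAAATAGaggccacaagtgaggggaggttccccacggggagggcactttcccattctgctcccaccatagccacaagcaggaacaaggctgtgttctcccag

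The strongest peak outside a protein-coding promoter lay beyond Mef2d, and the peaks that differed most between the libraries lay in introns of Myocd, Mef2a and Mef2c. Capitals mark bases inside a footprint in both libraries. A footprint is a short stretch of few cuts within a cut-rich region, as the authors called it.

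Mef2d chr3:88178001-88178240, plus strand: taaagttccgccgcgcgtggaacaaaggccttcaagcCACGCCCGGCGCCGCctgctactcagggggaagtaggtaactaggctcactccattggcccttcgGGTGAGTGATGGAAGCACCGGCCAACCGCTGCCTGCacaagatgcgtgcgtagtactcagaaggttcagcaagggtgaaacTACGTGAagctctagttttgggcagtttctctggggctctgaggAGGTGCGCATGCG

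Myocd chr11:65197381-65197540, minus strand: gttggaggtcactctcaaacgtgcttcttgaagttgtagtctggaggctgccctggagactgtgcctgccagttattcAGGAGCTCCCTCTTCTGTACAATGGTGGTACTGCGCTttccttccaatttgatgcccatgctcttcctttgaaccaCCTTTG

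Mef2a chr7:67259941-67260140, minus strand: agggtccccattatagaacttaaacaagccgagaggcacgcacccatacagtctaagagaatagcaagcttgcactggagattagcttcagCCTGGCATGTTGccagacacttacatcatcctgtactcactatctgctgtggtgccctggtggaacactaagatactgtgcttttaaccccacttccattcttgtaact

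Mef2c chr13:83654981-83655140, plus strand: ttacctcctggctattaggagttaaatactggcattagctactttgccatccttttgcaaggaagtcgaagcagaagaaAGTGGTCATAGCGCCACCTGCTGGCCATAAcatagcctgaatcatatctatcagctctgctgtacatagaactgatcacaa

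The first question was which members had an accessible promoter, that is a peak within 1 kb of any annotated start site. All 6 had one in replicate 1 and 5 of 6 in replicate 2, and Myocd was the gene without one there. Over all protein-coding genes the shares were 65.2% in replicate 1 and 67.6% in replicate 2, and 64.2% had a promoter peak in both, as 5 of the 6 members did.

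Srf, on chromosome 17 from 46548329 to 46556175 on the minus strand, had one of the strongest promoters. Its peak at 46556241 to 46556480 lay 66 bp upstream of the start site and had a signal of 8.16 in replicate 1 and 7.30 in replicate 2, 7.73 ± 0.609 (SD, n = 2). This was higher than the promoter signal of 94.3% and 91.4% of genes, counting genes without a peak as lowest. The libraries differed here by less than either differed from the medians of genes with a promoter peak, 3.27 and 3.42.

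Mef2a, on chromosome 7 from 67231163 to 67372858 on the minus strand, is a widely expressed member of its family. Its promoter peak spanned the start site and had a signal of 5.62 and 5.91 in the 2 libraries, 5.77 ± 0.207 (SD, n = 2). Upstream of it the accessible stretch went on, with a peak of 2.46 and 2.72 at 67373321 to 67373580. Between them a further peak, with a signal of 3.82, was called in replicate 1 only. It was the strongest of all member peaks called in a single library. Replicate 2 had no peak call there but 3 footprints, and 2 of the 5 footprints of replicate 1 overlapped one of these. Whether the signal itself was lower there in replicate 2 was not tested.

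Mef2d, on chromosome 3 from 88142372 to 88172086 on the plus strand, also had a promoter peak across its start site, with a signal of 5.18 and 5.10, 5.14 ± 0.0606 (SD, n = 2). The libraries were nearly equal there.

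Mef2b, on chromosome 8 from 70139711 to 70167488 on the plus strand, had the highest value of the 6, 8.79 and 9.61, 9.20 ± 0.582 (SD, n = 2). This peak lay 251 bp or more upstream of the start of 1 Mef2b transcript and within 1 kb of the starts of Borcs8 and Rfxank. It cannot be assigned to 1 of these genes. The other 4 Mef2b transcripts start at 70152778 to 70152781, where the peak had a signal of 0.733 and 1.24. That value is below the median of genes with a promoter peak in both libraries.

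Mef2c, on chromosome 13 from 83504034 to 83667080 on the plus strand, the member best known from heart and skeletal muscle, neurons and B cells, had a weak promoter. Its strongest start-site peak had a signal of 1.38 and 1.22, 1.30 ± 0.114 (SD, n = 2), above the promoter signal of 48.9% and 45.6% of genes. It lay at 83524601 to 83524920, in an annotated untranslated exon, within the start-site group that the largest number of Mef2c transcripts use, 10 of 31. Start sites less than 500 bp apart were put into 1 group, which gave Mef2c 10 groups.

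The most upstream Mef2c group, at 83504034 to 83504240 with 6 transcripts, all protein-coding, had no peak in either library. The nearest was 13761 bp away in replicate 1 and 13781 bp in replicate 2. No base within 1 kb was listed with a cut-rate false discovery rate under 0.05. Of the 10 groups, 5 had a peak within 1 kb in both libraries or in replicate 2: those at 83523473, at 83524291 to 83524920, at 83572348 to 83572381 and at 83652888 in both, and that at 83530138 in replicate 2 only, with a signal of 0.309. Mef2c was thus accessible at internal start sites and not detectably at its first.

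Myocd, on chromosome 11 from 65176561 to 65269989 on the minus strand, was the weakest. Its start-site peak had a signal of 0.614 in replicate 1, which is 72 steps of that library's scale and above the promoter signal of 39.1% of genes. The lowest false discovery rate in it was 0.000661, and it was in the longer deposited list but not in the shorter one. In replicate 2 no base within 1 kb of this start site was listed under 0.05, and the nearest peak lay 1334 bp inside the gene with a signal of 0.451. An open Myocd promoter was therefore not detected in replicate 2, whose depth is unknown, and 1 library decides its place in the count. With a window of 2 kb in place of 1 kb, the peak inside the gene counted and all 6 members had a promoter peak in both libraries. The 3 start sites further along the gene had no peak within 1 kb in either library.

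In order of promoter signal the members ran Mef2b, Srf, Mef2a, Mef2d, Mef2c and Myocd, and no neighbours in this order had overlapping values. Without the start site that Mef2b shares with its neighbours, Mef2b would stand at 0.733 and 1.24, where its range overlaps that of Mef2c.

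**Figure D1:**
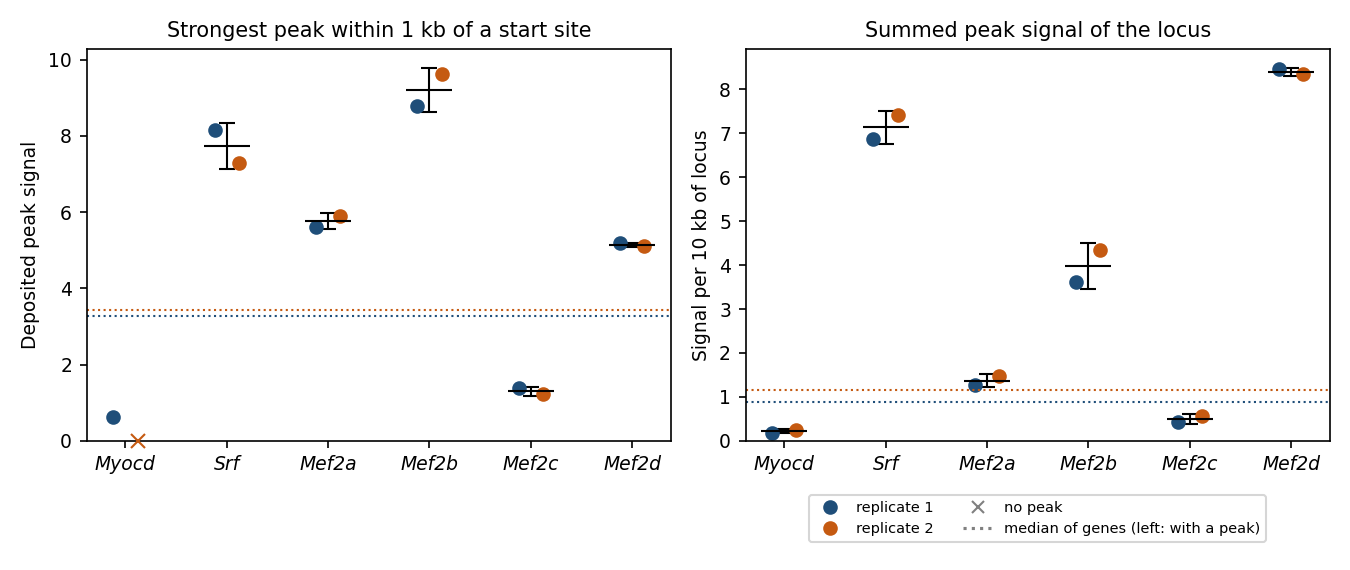
Left, the signal of the strongest peak within 1 kb of a start site, and right, the summed peak signal per 10 kb of locus, for each gene (points, 1 per library; bar and whiskers, mean ± SD, n = 2; dotted lines, medians over protein-coding genes, on the left those with a promoter peak). Srf, Mef2a, Mef2b and Mef2d lie above both lines on the left, Mef2c below them, and Myocd at 0.614 with no peak in replicate 2.

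The second question was how much accessible chromatin each locus held. Together the loci had 49 peaks in replicate 1 and 62 in replicate 2, 55.5 ± 9.19 (SD, n = 2). Merged over the libraries they formed 66 regions. Per length, Mef2d and Srf were dense and Myocd was nearly bare.

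Summed signal per 10 kb was 8.47 and 8.34 at Mef2d, above 98.5% and 97.8% of protein-coding loci. At Srf it was 6.87 and 7.41, above 97.0% and 96.7%. Both are short genes, 29.7 kb and 7.85 kb, so a single strong peak weighs more there than in a long gene. Mef2b reached 3.62 and 4.35, and Mef2a 1.26 and 1.48. The medians over all loci were 0.889 and 1.15.

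Mef2c reached 0.423 and 0.573 per 10 kb, under both medians. Myocd had 0.189 and 0.250, above 27.6% and 25.5% of loci. No neighbours in this order overlapped between the libraries either. By count, Mef2c was not poor: it held 11 and 15 peaks, but none had a signal over 2.28. Myocd held 3 and 2.

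The 93.4 kb of Myocd with its flanks held 4 regions, and 1 of them was found in both libraries. It lay at 65197381 to 65197540, in intron 7 of the transcript Myocd-203. No peak lay in the 10 kb upstream of the gene other than the one across the start site. The next peak beyond was 96.7 kb upstream in replicate 1 and 64.4 kb in replicate 2, with signals of 0.614 and 0.274.

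The place of the signal differed among members. Of summed signal at Myocd, 71.4% in replicate 1 and 100% in replicate 2 came from inside the gene and away from its start sites. At Mef2c that share was 51.0% and 53.9%, and at Srf 45.1% and 39.2%. At Mef2d 68.5% and 70.0% came from the flanks, away from any protein-coding start.

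At Mef2b 90.7% and 83.6% came from regions near the start of another gene. These were the peak shared with Borcs8 and Rfxank, a weak one beside it in replicate 2, and the promoters of Nr2c2ap and Tmem161a in the flanks. Without peaks near a start of another gene, Mef2b kept 2.5 peaks on average in place of 7. At Mef2a 29.8% and 30.7% came from the promoter of Lysmd4, at 67222421 to 67222640. At Srf 8.42% and 12.2% came from the promoter of Cul9.

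**Figure D2:**
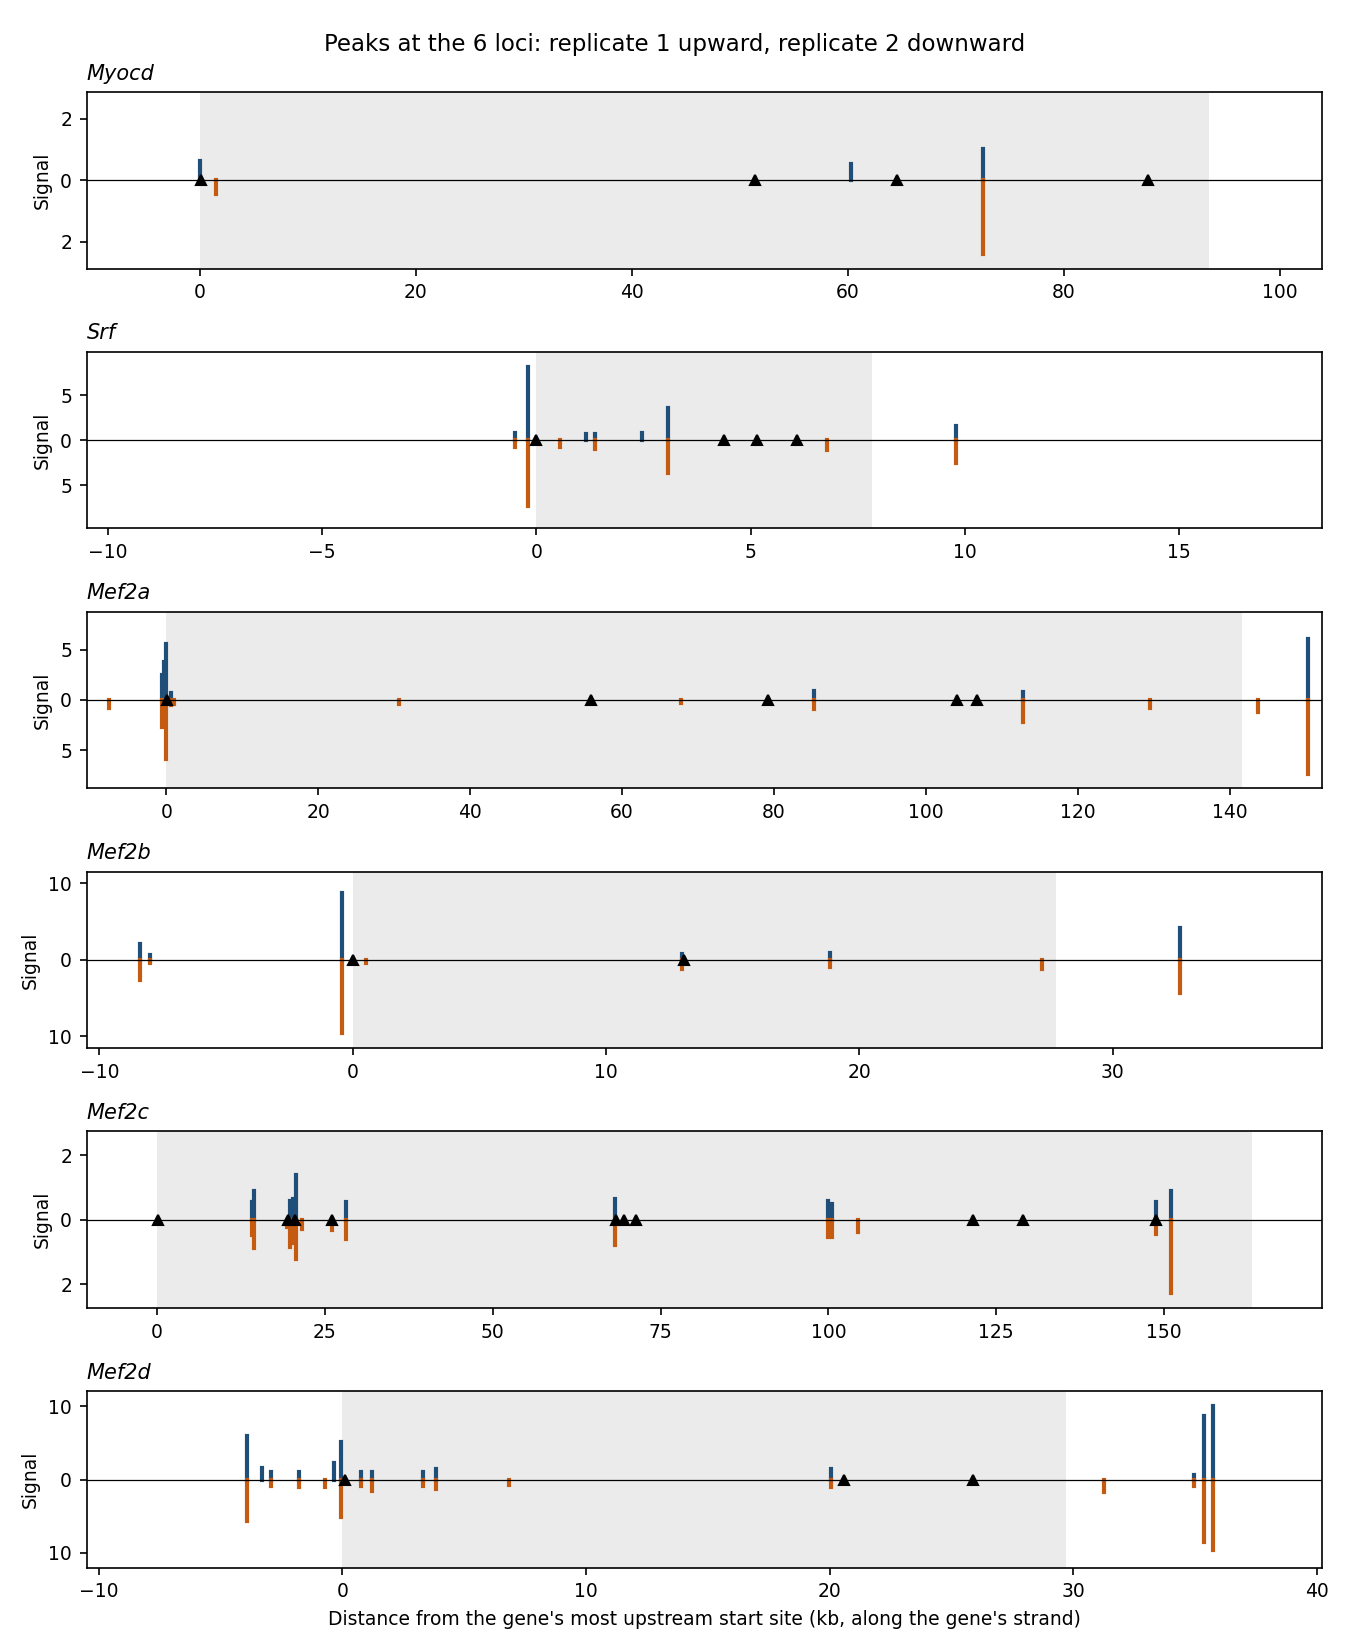
Peaks at each locus against distance from the gene's most upstream start site, along the gene's strand (blue upward, signal in replicate 1; orange downward, replicate 2; each line, the strongest peak of a region; grey, gene body; triangles, groups of start sites; the signal axes differ between genes). Srf is highest just upstream of its start site, Mef2a is high there and at the Lysmd4 promoter in its far flank, Mef2d is highest in its far flank, Mef2c at internal start sites, and Myocd has 1 region in both libraries.

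A pair of strong peaks lay in the Mef2d flank, 5.52 kb and 5.92 kb beyond the 3′ end of the gene. The one at 88177601 to 88177880 had a signal of 8.71 and 8.51, and the one at 88178001 to 88178240 had 10.02 and 9.54. Both exceeded the Mef2d promoter in both libraries, and among all member regions the peak shared by Mef2b, Borcs8 and Rfxank was of like height. No protein-coding gene starts there. The noncoding antisense gene 1700113A16Rik, on the minus strand from 88171556 to 88177785, starts inside the first and 216 bp from the second, and it runs into the 3′ end of Mef2d.

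Upstream of Mef2d there was a further strong peak at 88138341 to 88138560, with 5.89 and 5.61, about as high as the promoter itself. It lay between genes. Weaker peaks filled the stretch from there to the promoter.

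At Srf the second strongest region was in intron 2 of Srf-201, at 46552841 to 46553380, with 3.52 and 3.68, 3.60 ± 0.115 (SD, n = 2). In each library it was made of 2 peaks. It held 7 footprints in replicate 1, and replicate 2 had an overlapping one at 4 of these. Of the 9 Srf regions, 5 were found in both libraries.

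Shared peaks were the rule among members. From replicate 1, 42 of the 49 member peaks (85.7%) were met by a peak in replicate 2, beside 84.7% of all its peaks. In the other direction 44 of 62 were (71.0%), beside 64.1%. Of the 66 regions, 41 were in both libraries, 7 in replicate 1 only and 18 in replicate 2 only. Regions of replicate 2 only had a median signal of 0.614.

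The third question was how far the loci differed between the replicates. The log2 ratio of summed signal, replicate 2 over replicate 1, was centred by subtracting its median over the 17377 loci that had signal in each library, 0.28. It was 0.15 at Mef2c, 0.12 at Myocd, -0.02 at Mef2b, -0.06 at Mef2a, -0.18 at Srf and -0.31 at Mef2d. None of the 6 was past 1.5-fold. Over all loci 11% were higher and 3.4% lower by that much, so with only 6 loci this does not set the members apart. The median of the 6 was -0.04 and the SD over loci was 0.17.

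The near balance depended on which peaks entered. Without promoter peaks Mef2a stood at 1.33 and Mef2b at 0.73, against -0.68 for Srf and -0.55 for Mef2d. With paired peaks only, which leaves a single Myocd region, Myocd stood at 1.08, and with 50 kb on either side it was -0.34. Mef2d was below 0 under every choice tried, and Srf under every choice but the ratio without centring.

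Single regions differed more than whole loci. Of the 41 shared regions, 35 were within 1.5-fold, the median log2 ratio without centring was 0.07, and 3 were over 2-fold higher in replicate 2. None was over 2-fold lower. Among all 70427 paired peaks, 7.52% were over 2-fold higher in replicate 2.

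The region in intron 7 of Myocd had a signal of 1.01 in replicate 1 and 2.39 in replicate 2, a log2 ratio of 1.25. In intron 7 of Mef2a-208, at 67259941 to 67260140, the signal was 0.819 and 2.23, a log2 ratio of 1.44. In intron 8 of Mef2c-201, at 83654981 to 83655140, it was 0.887 and 2.28, a log2 ratio of 1.36. Each is the only shared intron region of its gene that differed this much, and each held a footprint found in both libraries.

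**Figure D3:**
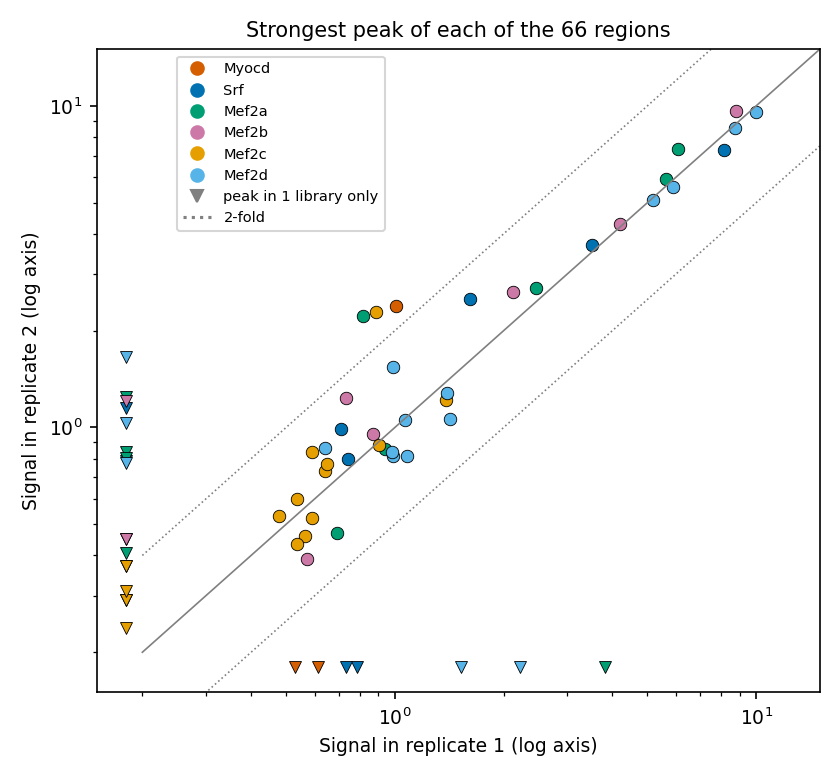
Signal of the strongest peak of each of the 66 regions in replicate 1 against replicate 2, on log axes, coloured by gene (circles, both libraries; triangles at the margins, 1 library only; solid line, equality; dotted lines, 2-fold). Of the 41 shared regions, 3 lie above the upper dotted line, 1 each of Myocd, Mef2a and Mef2c.

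These regions were searched for the CTCF core consensus, 12 letters on both strands, a search chosen after their values were seen. CTCF is the zinc finger protein that marks loop anchors and insulators. The Mef2c region held a match, inside a footprint of 31 bp in replicate 1 and 32 bp in replicate 2, seen in the capitals of its sequence. The Myocd and Mef2a regions held no exact match, and sequences with mismatches to the consensus were not searched.

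Of the 66 member regions, 3 held this consensus. The other two were in replicate 2 only, both at Mef2a, at 67229001 to 67229200 with a signal of 1.25 and at 67243221 to 67243413 with 0.839. Among all peaks of replicate 2, 5.34% held it, and 26.6% of those had no partner in replicate 1. Of all replicate 2 peaks only 64.1% had a partner, so lacking one was less common among peaks with a match. Of 4421 paired peaks with a match, 32% were over 2-fold higher in replicate 2, and their median log2 ratio was 0.81 against 0.14 for all pairs. The part of this in the member loci was not tested.

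The Myocd region had a wide footprint of its own, 37 bp in replicate 1 and 43 bp in replicate 2. Its bases are the long run of capitals in the Myocd sequence. Footprints of 30 bp or more made up 2.87% and 4.96% of all footprints. Other members had footprints as wide, the widest being 41 and 43 bp at Mef2b and 43 and 42 bp at Mef2d. At the Mef2a region the footprint common to both libraries was 12 bp in replicate 1 and 28 bp in replicate 2.

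The last question was whether the genes carry binding consensus sequences of their own proteins in accessible chromatin. Within the 66 regions there were 2 exact CArG box matches and 4 exact MEF2 element matches. No match overlapped a footprint in both libraries. Among all peaks, 0.897% in replicate 1 and 0.938% in replicate 2 held a CArG box match, and 0.856% and 1.1% a MEF2 match. Matches of this length are rare in peaks, and with 6 in all no share is read from them.

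The Srf intron region held 1 CArG box, at 46553353 to 46553362, which reads CCATATAAGG on the strand of the gene. It lay in a peak in both libraries and in a footprint in neither. In the 300 bases upstream of the Srf start site there were 2 more, at 46556215 to 46556224 and at 46556235 to 46556244. These are 40 to 49 bp and 60 to 69 bp upstream, and the one farther out has the same 10 letters as the one in the intron.

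The edge of the called promoter peak ran through the outer box. It took in 4 bases of that box and none of the inner one, so neither was counted as lying in a peak. All 10 bases of each box had a cut-rate false discovery rate under 0.05 in both libraries. The highest value over the inner box was 8.3e-28 in replicate 1 and 3.1e-14 in replicate 2, and over the outer box 6.7e-39 and 5.3e-19. Both boxes thus lay in chromatin listed as cut above background, at or outside the border of the called peak.

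No footprint overlapped either box. The nearest was 14 bp from the outer box in replicate 1 and 11 bp in replicate 2. The promoter peak itself held 6 footprints in each library. Replicate 2 had an overlapping footprint at 5 of the 6 of replicate 1, the widest of 33 bp at 46556355 to 46556387. Of 32851 RefSeq promoter windows of 300 bp, 1.63% held a CArG box and 3.19% a MEF2 element. Of the 6 members, 5 had such a window. Among these, only that of Srf held a CArG box and only that of Mef2a a MEF2 element. The windows of Mef2b, Mef2c and Mef2d held neither.

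At Mef2a the MEF2 element lay across the start site itself, at 67372851 to 67372860, with the most upstream start at 67372858. It is within the promoter peak of both libraries. A footprint of 7 bp at 67372848 to 67372854 overlapped it in replicate 1, and none did in replicate 2. A MEF2 gene thus carries the family's element at its own start.

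Mef2c held 2 elements in the region at 83603916 to 83604140, in intron 4 of Mef2c-201, at 83603975 to 83603984 and at 83603997 to 83604006. This is a weak region, with a signal of 0.588 and 0.521. The second element overlapped a footprint in replicate 1 only. The fourth element lay upstream of Mef2d at 88140793 to 88140802, in a region with a signal of 1.07 and 1.05.

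All 4 MEF2 elements had the same letters on the strand of their gene, CTAAAAATAG. Among all exact MEF2 matches in peaks this form made up 10.2% in replicate 1 and 9.35% in replicate 2. It ranked 1 of 35 forms in replicate 1 and 2 of 36 in replicate 2. It is thus a common form. The CArG box of the Mef2d flank, at 88177681 to 88177690, is in the peak where 1700113A16Rik starts and in no footprint.

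Footprints followed the peaks. The loci held 119 in replicate 1 and 139 in replicate 2. Of the 119, 60.5% overlapped a footprint of replicate 2, beside 55.1% over all. Mef2d had the highest number, 35 and 43, and Myocd the lowest, 2 and 3. Per kb of peak, Srf had 11.6 and 10.99 and Mef2b 12.3 and 11.5, above the 9.80 and 9.66 over all peaks. Mef2c had 6.94 and 6.23 and Myocd 2.68 and 4.17, both below them. Mef2a had 14.0 and 9.12 and Mef2d 8.39 and 9.85, on either side. The Myocd rates rest on only 2 footprints in 746 bp of peak in replicate 1 and 1 in 240 bp in replicate 2.

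The genes that act with or downstream of the members were taken from 6 fixed lists with 45 genes beside the members. An accessible promoter was found for 43 in replicate 1, for 42 in replicate 2 and for 41 in both, beside the 65.2%, 67.6% and 64.2% of all genes given above. Kcnmb1, a subunit of a potassium channel of smooth muscle, was the one with none in either. The lists were written with earlier results of these data known, so these counts are descriptions.

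All 6 genes of the SRF cofactor list had a promoter peak in both libraries. Mrtfa, whose protein is released from actin to join SRF in the nucleus, had a signal of 10.3 and 8.41. This was far above the 0.614 of Myocd, a relative in the same family. Mrtfb had 3.21 and 4.22. Of the ternary complex factors, which bring growth signals to SRF, Elk4 had 3.55 and 3.58, Elk1 2.19 and 2.21, and Elk3 0.904 and 0.857.

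Among 9 repressors and activators of MEF2, 7 were above the median of genes with a promoter peak in both libraries. Of the class IIa deacetylases that bind and silence MEF2 proteins, Hdac4 had 12.2 and 10.9, and Hdac5 had 7.98 and 9.59. Hdac7 had 1.27 and 0.954, and Hdac9 had no promoter peak in replicate 1 and 0.353 in replicate 2. The deacetylase genes thus ran from among the strongest promoters to none. The kinase genes Mapk14, with 10.9 and 8.35, and Mapk7, with 6.64 and 4.83, were both above the median. The Mapk14 peak also lies within 1 kb of the start of Slc26a8.

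Smooth muscle targets had the lowest median promoter signal of the 6 lists, 1.19 in replicate 1 and 1.48 in replicate 2, with genes without a peak entered as 0. Of 16, 13 had a promoter peak in both libraries. The median used for the split is that of genes with a promoter peak, 65.2% and 67.6% of all genes. A gene without a peak was counted as below it. Most protein-coding genes thus also lie below it or have no peak, and the split is only a description. In both libraries 10 of the 16 were below, among them Kcnmb1, Actg2 and Lmod1, which lacked a peak in at least 1 library, and 4 were above. Those above were Vcl, which encodes the adhesion protein vinculin, with 11.2 and 9.18, Tpm1, a tropomyosin, with 8.96 and 8.996, Smtn and Mylk.

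Several widely used smooth muscle markers were among the 10 below. Acta2, smooth muscle actin, had 0.742 and 0.716, Cnn1, calponin, 0.742 and 0.619, and Myh11, the smooth muscle myosin heavy chain, 1.18 and 1.97. Tagln had 1.19 and 1.58, and Des, desmin, 0.844 and 1.01. Actg2, the visceral smooth muscle actin, and Lmod1 had a promoter peak in replicate 1 only, of 0.520 and 0.759.

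Growth response targets of SRF are early genes that rise within minutes of a stimulus. All 7 besides Srf had a promoter peak in both libraries, and 5 were above the median in both. Junb had 7.54 and 6.85, Ier2 6.52 and 7.21, Egr1 5.89 and 6.92, Egr2 4.07 and 4.90, and Fos 3.62 and 3.75. The remaining ones, Egr3 and Ccn1, were below it, with 1.94 and 2.04 and with 2.06 and 1.79.

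Of 6 MEF2 targets, 4 were above the median in both libraries: Jun, with 10.1 and 11.3, Klf2, Klf4 and Nr4a1. Ckm, the muscle creatine kinase, had 1.94 and 2.94, and its peak lies also within 1 kb of the start of Klc3. All 4 genes listed as antagonists of myocardin had a promoter peak in both libraries. Among them Hey2 had 7.03 and 7.58, Klf4 5.45 and 3.91, Foxo4 3.12 and 2.91, and Elk1 the values above.

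**Figure D4:**
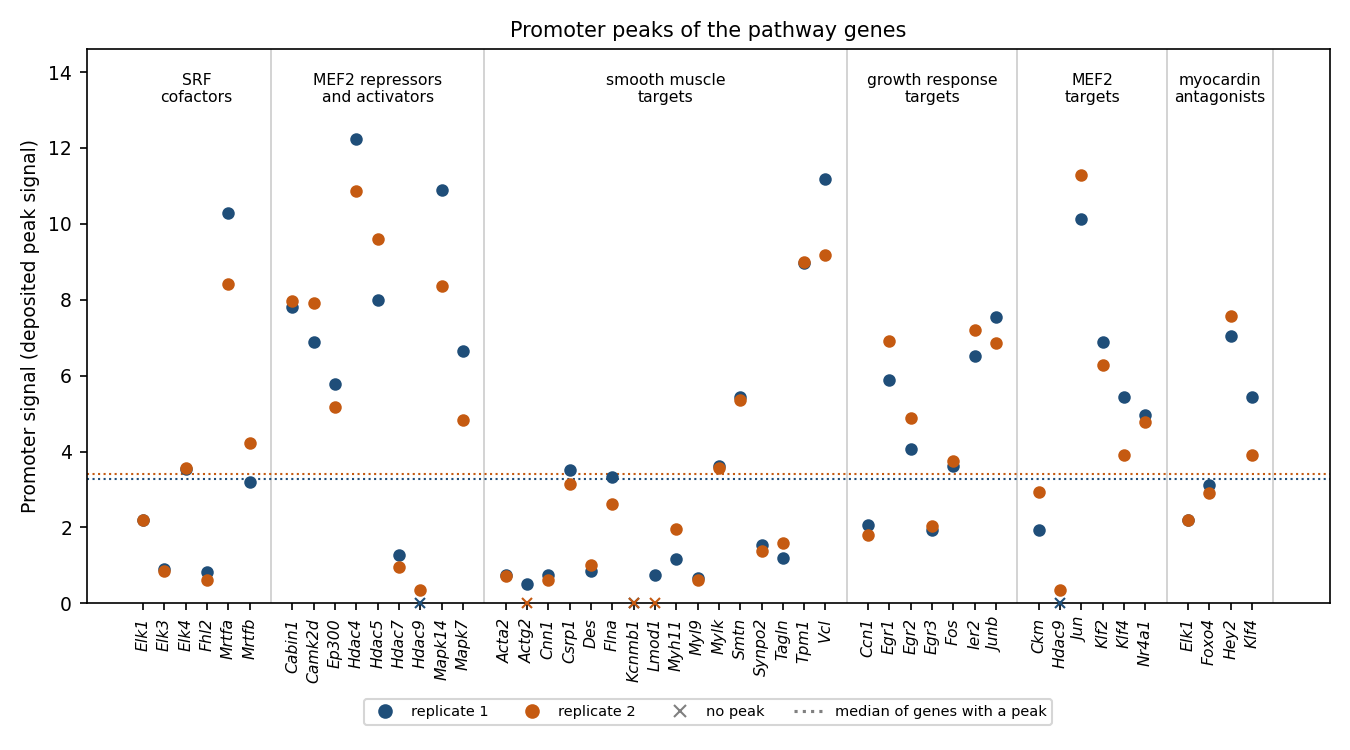
Promoter signal of the 45 pathway genes by list (1 column per gene, 1 point per library; crosses, no promoter peak; dotted lines, medians of all genes with a promoter peak; Hdac9, Klf4 and Elk1 are in more than 1 list). Of the 16 smooth muscle targets, 10 lie below both lines, counting those without a peak, and of the 9 MEF2 repressors and activators, 7 lie above.

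Between the replicates, the centred log2 ratio of summed locus signal had a median of -0.08 over 44 pathway genes with a value. Of the 44, 5 were past 1.5-fold, beside 11% of all loci higher and 3.4% lower by that much, so the number is not read as a result about these genes. Des was higher in replicate 2 at 1.72, Hdac9 at 1.44 and Elk3 at 0.86, and Tagln was lower at -1.09 and Mapk7 at -0.77. By list the median was -0.31 for growth response targets besides Srf, with 6 of 7 below 0, and 0.04 for smooth muscle targets, with 9 of 15 above 0. No difference between lists was tested.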

How the data were processed

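DNase-seq was measured in 2 libraries of 1 group, and each deposited file was used per library. All are on mm10 per the labels. No aligner or peak caller is named in the labels or headers used. The authors deposited a peak signal, which came in steps of 0.00853 in replicate 1 and 0.00884 in replicate 2 for 100% of peaks (tolerance 0.02). It was therefore treated as a scaled count of unknown factor. The median peak held 96 and 86 steps, the total depth is unknown, and the signal's precision is limited by these counts. The authors also deposited values on the p-value scale: a cut-rate false discovery rate per stretch, and 0.01 for every footprint. Each library has 2 deposited peak lists, and the longer was used. All its peaks held a base under 0.05, and those of the shorter list a base under 0.001.

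Peaks were joined to GENCODE M21 genes with Python 3.11.15 and numpy 2.4.6. Promoter peaks were those within 1 kb of a start site of the gene, and overlap meant at least 1 bp. Motif matches were exact, on both strands, in GRCm38.p6. Promoter windows were RefSeq's, from 250 bases before to 50 after a start (GRCm38.p6). The interval, ratio and motif steps were checked on simulated data. Values are per library with mean and SD (n = 2). No test was possible, so shares over all genes or peaks are given as background.

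The members, lists and rules were chosen with earlier results of these data known. The rule for naming covered all members and list genes. Per member it covered the strongest promoter peak, the strongest shared peak elsewhere and the peaks that differed most. Regions with a motif match, the Srf boxes, the Mef2a peak in 1 library and all CTCF results were singled out after values were seen. Not every list gene or peak under the naming rule is named. Alternatives covered promoter and locus width, overlap, peak list, centring, start sites, motif mismatches and footprint edges.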

Additional observations from a re-analysis of the deposited data

How the results depend on the processing

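Members with a promoter peak numbered 5 to 6 on average under the alternatives run (5 and 6 with either library alone), and pathway genes 36.5 to 43. The share of member peaks found in both libraries, 77.5% on average, was 65.8% when 50% of both peaks had to overlap and 72.1% to 77.1% otherwise. Gene bodies alone gave 36.5 locus peaks in place of 55.5, 61.5 footprints in place of 129 and 3.5 motif matches in place of 5.5. The 42295 strongest peaks of each library gave 29 locus peaks. The median log2 ratio of the loci was -0.04, 0.25 without centring and 0.18 with gene bodies alone. Motif matches numbered 14 with 1 mismatch allowed, 1.5 within footprints with 5 bp added and 1 within footprints as deposited. Gene bodies alone count a smaller part of each locus, the strongest peaks leave out weak ones, and a mismatch loosens the motif. The cause of the change in the ratio was not tested. No paired analysis was possible because the libraries form 1 group. Median peaks of 96 and 86 steps limit what weak peaks, such as those of Myocd, can show.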
